A study of Homo sapiens with 6 samples.

Results

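Acetylation of histone H4 was compared between H1975 cells carrying the hairpin shTIP60-C and H1975 cells carrying a control hairpin, over the H4ac peaks of the control library. Of 36034 control peaks, the 35728 with at least 30 reads summed over both libraries were kept, out of 66546 regions in the table of this comparison and 129845 in the tables of the series. H1975 is an established lung adenocarcinoma line with mutant EGFR. The shTIP60-C cells expressed a Tet-inducible hairpin against TIP60, and the shControl cells a Tet-inducible control hairpin. Both groups, the control included, had received 0.5 ug/ml doxycycline for 2 days, and each group is 1 H4ac library, so the differences have no replicate check and none was tested. Chromatin was fixed for 10 min in 1% formaldehyde, sheared to 100 to 1000 bp, precipitated with an antibody against acetylated H4 and read as paired ends of 75 bp. Another hairpin and the input libraries were not used here. The labels do not say whether each line is a clone or a pool.

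Histone H4 tails are acetylated at active promoters and enhancers, where the mark loosens nucleosome contacts and recruits bromodomain proteins. TIP60, encoded by KAT5, is the catalytic subunit of the NuA4 complex, which acetylates histone H4, histone H2A and H2A.Z and also modifies non-histone substrates such as p53 and ATM. In this complex EP400 is the remodelling ATPase, TRRAP contacts transcription factors, and EPC1, EPC2 and ING3 join the acetyltransferase to chromatin.

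The widest departure from the other gene groups was found at promoters of the ATF4 stress response, so the element that ATF4 binds as a dimer with C/EBP proteins is shown first. The letters searched were TGATGNAA on both strands, within 250 bases before to 50 bases after the start sites of RefSeq genes (GRCh38.p14). This element occurred in 3.62% of 35116 such windows. Capitals mark the match, and each sequence is given 5′ to 3′ on the strand of its gene.
CHAC1, chr15:40953222-40953309, plus strand: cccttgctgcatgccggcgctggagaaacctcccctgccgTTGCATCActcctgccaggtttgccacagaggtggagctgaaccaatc
CEBPG, chr19:33374031-33374112, plus strand: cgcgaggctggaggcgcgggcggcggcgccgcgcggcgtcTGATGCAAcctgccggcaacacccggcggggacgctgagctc
ASNS, chr7:97872429-97872516, minus strand: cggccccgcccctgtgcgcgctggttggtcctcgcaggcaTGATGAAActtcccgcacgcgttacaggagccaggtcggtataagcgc
JDP2, chr14:75427966-75428021, plus strand: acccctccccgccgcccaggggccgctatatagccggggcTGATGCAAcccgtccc
The match lay 201 bases upstream of the start site in CHAC1, 34 in CEBPG, 60 in ASNS and 8 in JDP2. All 4 promoters had more H4ac reads in shTIP60-C cells relative to the median peak, with the values given under the ATF4 group. These 4 had the highest ratios among the 10 members of that group with the element, and SLC1A4 had the lowest, -0.77. The 10 had a median of 0.37 and members without the element 0.44, so the 4 shown do not tie the element to higher H4ac.

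The kept peaks held 6743903 shTIP60-C reads and 3633691 shControl reads, with a median of 95 shTIP60-C reads and 51 shControl reads per peak. For each peak the ratio was log2 of shTIP60-C over shControl reads, with 1 read added to each, minus its median over the kept peaks, which was 0.82 (1.76-fold). A ratio of 0 is therefore the median peak, and a change shared by all peaks cannot be seen. Intervals are exact 95% intervals of the read split and cover counting error only. Peaks with 25 to 29 reads, just outside the limit, had a median ratio of -1.45 (n = 212), and those with 30 to 34 reads, just inside it, had -1.07 (n = 495).

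The KAT5 promoter, the targeted gene, had 863 shTIP60-C reads and 401 shControl reads at chr11:65478278-65480264 on hg19, a ratio of 0.28 (0.11 to 0.46). It thus carried slightly more H4ac than the median peak in shTIP60-C cells. The hairpin acts on the transcript, so this value does not measure the knockdown. Of 11 markers of lung and epithelial cells, 7 had a promoter peak (CDH1, CLDN4, EPCAM, KRT8, KRT18, KRT19 and NKX2-1), with 2174 shTIP60-C reads and 1145 shControl reads summed. The surfactant genes SFTPB and SFTPC, the alveolar protease gene NAPSA and the keratin gene KRT7 had none. Of 19 markers of fibroblasts, immune, endothelial and neural cells, CD68 and COL1A1 had a promoter peak, with 227 shTIP60-C reads and 113 shControl reads summed.

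Depth set which differences could be seen. In the lowest decile of summed reads (30 to 51), the median ratio was -0.61, the SD over peaks was 0.47 and the SD expected from counting alone was 0.44. In that decile 86.0% of peaks were called in shControl alone. In the highest decile (650 reads or more) the median was 0.07 and the SD 0.23, which is 2.39 times the counting SD of 0.10. Weak peaks were thus both lower and noisier in this list, which was chosen by the control reads. Peaks called in shControl alone had a median of -0.49, and those called in shTIP60-C alone 0.93. The low median of weak peaks is therefore no finding. At strong peaks differences well under 2-fold exceeded counting error.

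**Figure D1:**
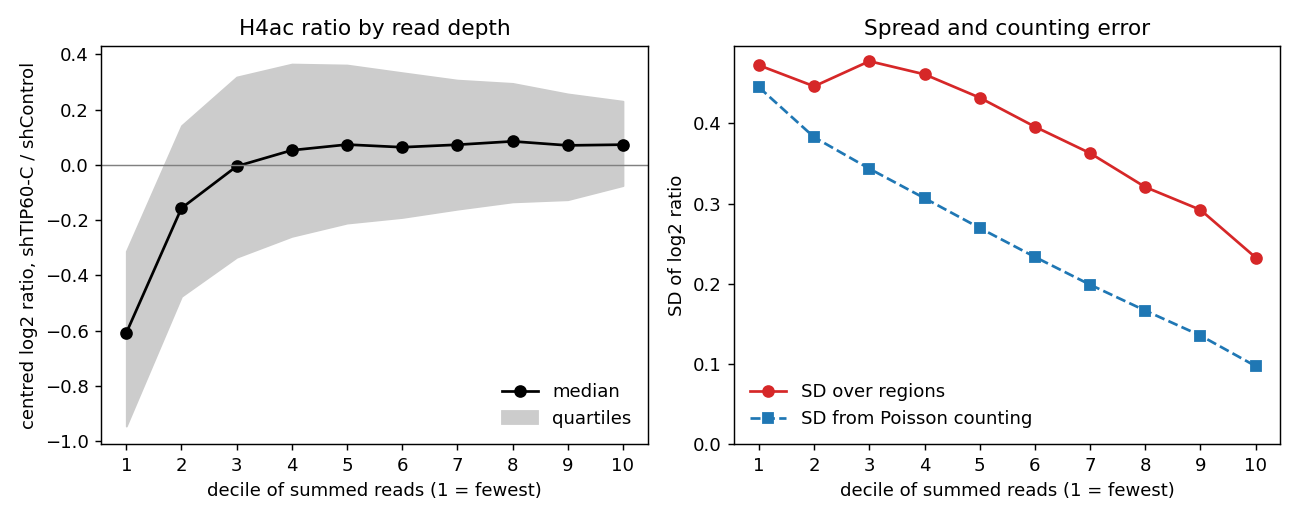
Left, median (line) and quartiles (grey) of the centred log2 H4ac ratio of shTIP60-C over shControl in 10 deciles of summed reads. Right, SD of the ratio over peaks (red) and the SD that Poisson counting gives (blue, dashed); the gap between the lines is widest, as a ratio, in the highest decile, at 2.39.

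A promoter peak lies within 1 kb of an annotated start site, and each gene was represented by its promoter peak with the most reads, which gave 10771 promoter genes. The other 23592 peaks were distal. The median ratio was 0.06 at promoter genes (quartiles -0.15 and 0.27) and -0.04 at distal peaks (-0.35 and 0.25). At least 2-fold differences were rare at promoters: 83 genes (0.771%) were lower and 71 (0.659%) higher in shTIP60-C cells. With the authors' own rescaled log2 ratio these counts were 149 lower and 33 higher, with scaling by summed reads 107 and 45, and with centring on the strongest peaks 106 and 50, so the balance of the directions rests on the scaling. At distal peaks 982 (4.16%) were lower and 199 (0.844%) higher, against 1558 and 99 with the authors' ratio. Of the 982, 909 were called in shControl alone, and 0 distal peaks called in shControl alone were higher by 2-fold. Such peaks were chosen by the control reads, so the excess of lower distal peaks is no finding. With the peaks of the shTIP60-C library, 107 distal peaks were lower and 993 higher. Among 6927 promoter genes with at least 200 reads, 0 were lower and 19 higher by 2-fold. A smaller limit, a ratio of 0.5 in either direction (1.41-fold), was used for the groups below; 636 promoter genes (5.9%) were at or below -0.5 and 934 (8.67%) at or above 0.5. Of all 35728 peaks, 13.9% were at or below -0.5 and 9.84% at or above 0.5, and 3.13% were lower and 0.798% higher by 2-fold. The difference between promoter and distal medians, 0.10, depended on depth and on the peak list. It was 0.02 after centring within read deciles, 0.03 among peaks with at least 60 reads and 0.02 among those with at least 100. Among peaks of the shTIP60-C library in place of control peaks, the promoter median was lower than the distal one by 0.11 on the log2 scale.

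Of 46 gene lists, the ATF4 stress response had the highest median, 0.44, and the IRF and STAT factors the lowest, -0.18. The lists were chosen with earlier results of these data known, so their ranks are descriptions only. The ATF4 median was the only list median outside the quartiles of all promoter genes on the high side, and IRF and STAT factors alone lay beyond the lower quartile. All lists but these and the replication-dependent histones lay within 0.2 of the median of all promoter genes, 0.06, including the NuA4 subunits at 0.01, p53 targets at -0.02, NF-kB at 0.05 and splicing factors at 0.05.

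**Figure D2:**
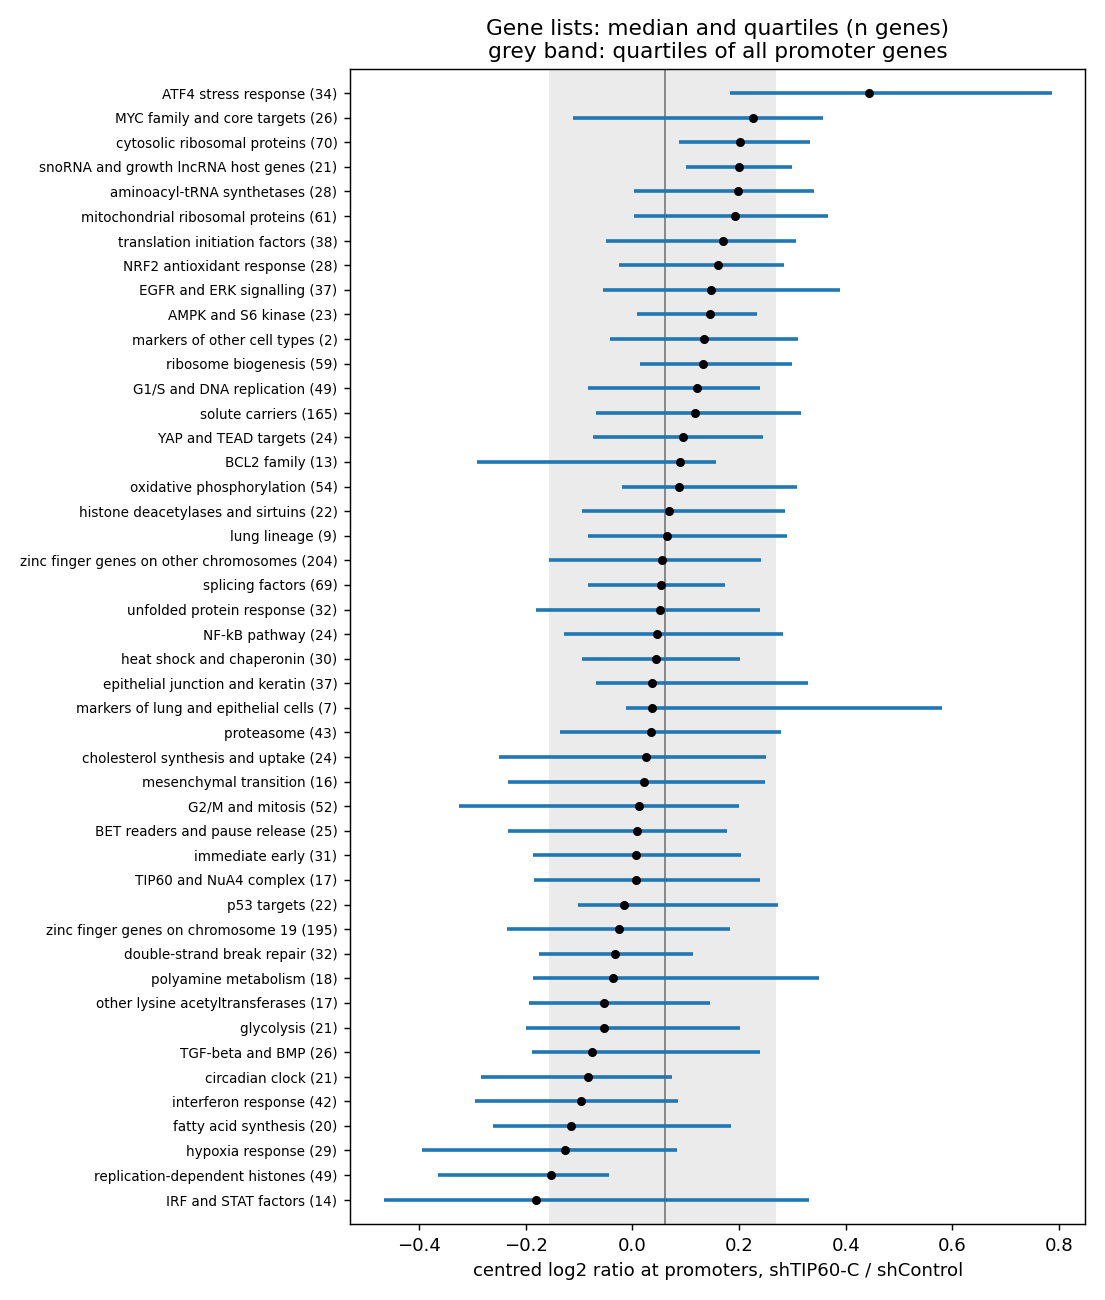
Median (points) and quartiles (bars) of the centred log2 H4ac ratio of shTIP60-C over shControl at promoters of 46 gene lists, with the number of genes in brackets. The line and grey band are the median, 0.06, and quartiles of all 10771 promoter genes; the ATF4 stress response, at 0.44, stands to the right of the band.

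ATF4 is the transcription factor that cells translate under amino acid shortage or endoplasmic reticulum stress, and it activates genes of amino acid supply and stress. Of 42 genes listed, 34 had a promoter peak; 15 of these 34 were at or above 0.5, against 8.67% of all promoter genes, and 2 at or below -0.5, against 5.9%. The quartiles were 0.18 and 0.79. The median centred within read deciles of all kept peaks was 0.37, so the excess was also present relative to peaks of like depth. ATF5, CEBPB, GDF15, FGF21, VLDLR, ALDH1L2, BCAT1 and SLC7A3 had no promoter peak of enough reads. The list was chosen with earlier results of these data known, and the groups by role below were formed after the values had been seen.

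Enzymes of amino acid and one-carbon synthesis had the highest median of the roles, 0.78. Of 11, 7 (63.6%) were at or above 0.5, against 8.67% of all promoter genes. GPT2, the mitochondrial alanine transaminase, had 217 shTIP60-C reads and 48 shControl reads, a ratio of 1.33 (0.90 to 1.84) or 2.52-fold. CBS, which opens the transsulfuration pathway, had 440 shTIP60-C reads and 127 shControl reads, a ratio of 0.97 (0.69 to 1.27). The serine pathway was high along most of its length. PHGDH, its entry enzyme, had 105 shTIP60-C reads and 32 shControl reads, a ratio of 0.86 (0.31 to 1.51), and PSAT1, the next enzyme, had 528 shTIP60-C reads and 169 shControl reads, a ratio of 0.82 (0.57 to 1.08). PSPH, which makes serine in the last step, had 224 shTIP60-C reads and 143 shControl reads, a ratio of -0.18 (-0.48 to 0.14), unlike the enzymes before it. The mitochondrial one-carbon enzymes SHMT2 and MTHFD2 had 339 and 831 shTIP60-C reads, against 105 and 273 shControl reads, with ratios of 0.86 (0.55 to 1.20) and 0.78 (0.59 to 0.99). Asparagine synthetase, ASNS, had 301 shTIP60-C reads and 112 shControl reads, a ratio of 0.60 (0.29 to 0.93). The proline enzymes PYCR1 and ALDH18A1 stood at 0.44 and 0.35. The transsulfuration enzyme CTH was low, with 60 shTIP60-C reads and 52 shControl reads, a ratio of -0.62 (-1.17 to -0.05).

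Stress effectors had a median of 0.61, with 5 of 9 (55.6%) at or above 0.5, against 8.67% of all promoter genes. NUPR1, a stress-induced chromatin protein, had 110 shTIP60-C reads and 21 shControl reads, a ratio of 1.52 (0.89 to 2.32), the highest of the 34. DDIT4, an inhibitor of mTORC1, had 333 shTIP60-C reads and 85 shControl reads, a ratio of 1.14 (0.80 to 1.51). CHAC1, which degrades glutathione, had 335 shTIP60-C reads and 104 shControl reads, a ratio of 0.86 (0.55 to 1.20). Its element is among the sequences above. TRIB3, a pseudokinase that restrains ATF4 and AKT, had 588 shTIP60-C reads and 206 shControl reads, a ratio of 0.69 (0.46 to 0.93). VEGFA, the angiogenic growth factor, stood at 0.61 (0.30 to 0.94), and the secreted glycoprotein STC2 and the ER-associated protein HERPUD1 at 0.41 and 0.36. PPP1R15A, which returns eIF2 to its unphosphorylated form, stood at -0.07, and the leucine sensor SESN2 at -0.26, with intervals that include 0.

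The transcription factors differed among themselves. CEBPG, a dimer partner of ATF4, had 581 shTIP60-C reads and 190 shControl reads, a ratio of 0.79 (0.55 to 1.04). ATF4 itself had 1245 shTIP60-C reads and 518 shControl reads, a ratio of 0.44 (0.30 to 0.60). JDP2 stood at 0.66 on 94 shTIP60-C reads and 33 shControl reads. DDIT3, the pro-apoptotic factor CHOP, stood at 0.16 (-0.00 to 0.32) and ATF3 at 0.01 (-0.18 to 0.20). These strong promoters, with 950 and 648 shTIP60-C reads against 482 and 365 shControl reads, were thus close to the median peak while CEBPG and ATF4 were above it.

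Transporters and tRNA export had the lowest median of the roles, 0.23. Of 9 members, 1 (11.1%) was at or above 0.5, near the 8.67% of all promoter genes. That member was the glycine transporter SLC6A9 at 0.53 (0.12 to 0.98). The neutral amino acid transporter SLC38A2, the heavy chain SLC3A2, the tRNA exporter XPOT and the cationic transporter SLC7A1 stood at 0.47, 0.38, 0.34 and 0.23, and SLC7A5 and SLC1A5 at 0.21 and 0.18. The cystine transporter SLC7A11 stood at -0.17 (-0.50 to 0.17). SLC1A4, a transporter of serine and alanine, had 141 shTIP60-C reads and 136 shControl reads, a ratio of -0.77 (-1.12 to -0.42). It was the lowest member, although its promoter window holds the element TGATGNAA. Distal peaks nearest to genes of the ATF4 list (n = 58) had a median of 0.16, against -0.04 for all distal peaks.

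**Figure D3:**
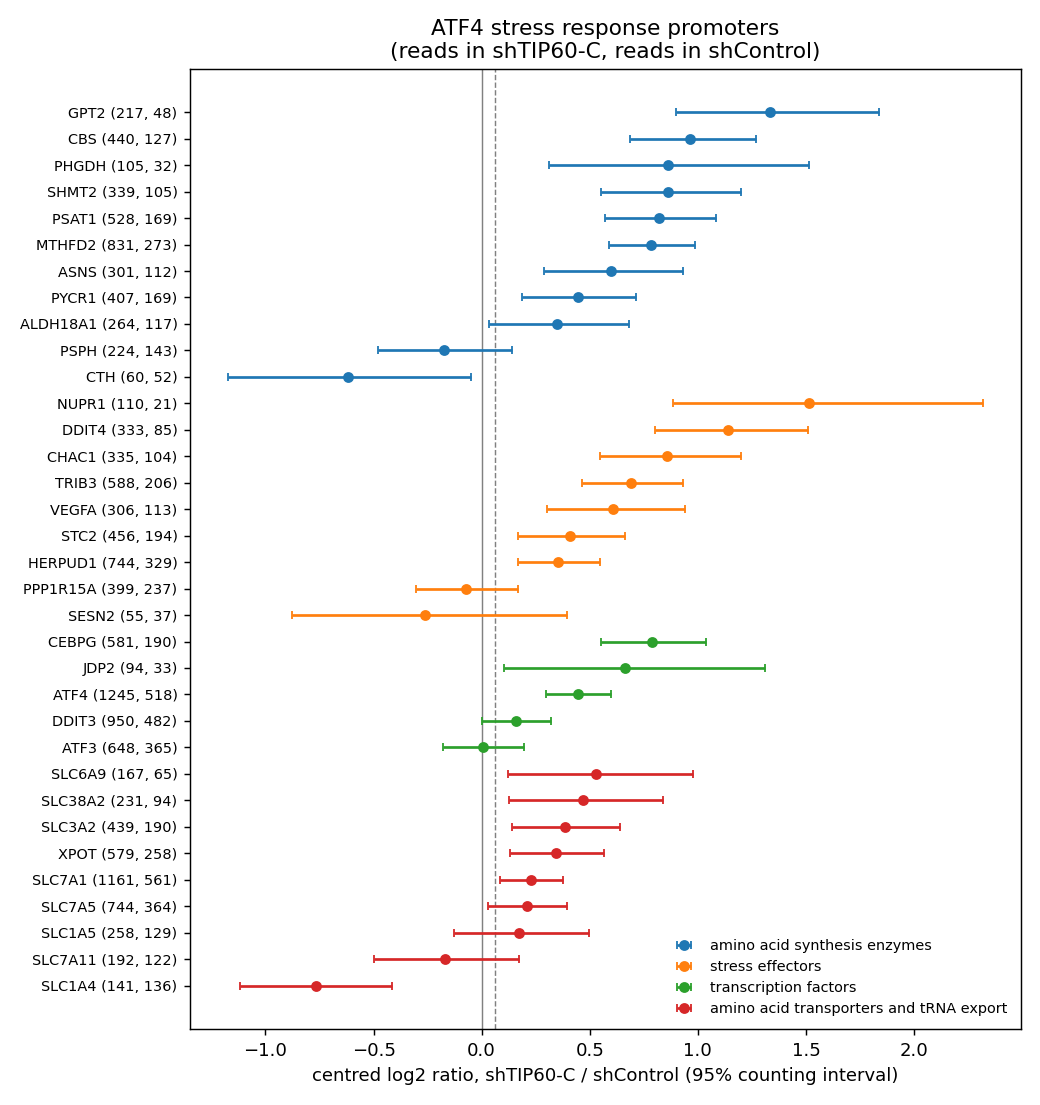
Centred log2 H4ac ratio of shTIP60-C over shControl at 34 promoters of the ATF4 stress response, coloured by role, with 95% counting intervals; brackets give shTIP60-C reads, then shControl reads. The solid line is 0 and the dashed line the median of all promoter genes; enzymes and stress effectors reach 1.33 and 1.52, and SLC1A4 is lowest at -0.77.

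The element did not separate the members of the ATF4 list. The 10 members with TGATGNAA, of 27 with a RefSeq promoter, had a median of 0.37, and those without it 0.44. Over 8593 promoter genes matched to RefSeq, of 10771, the 224 with the element had a median of 0.13 and the 8369 without it 0.06; 11.2% and 8.45% of them were at or above 0.5. The cAMP response core, TGACGT, which ATF1 and CREB1 bind, had the widest difference of the motifs searched, in the other direction. The 1251 genes with it had a median of -0.01 and the 7342 without it 0.07. Of genes with it, 4.64% were at or above 0.5, against 9.18% of those without. Genes with it were deeper, with a median of 363 reads against 285. Over all peaks the share at or above 0.5 was 16.4% at 112 to 146 reads and 3.99% at 650 or more. This core occurred in 7.98% of all windows and can overlap the hypoxia element below. These differences are descriptions, and a window without the letters says nothing about a factor's binding.

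The hypoxia group lay on the opposite side. HIF1A and EPAS1, with ARNT, switch cells to glycolysis and away from mitochondria under low oxygen. Of 41 genes listed, 29 had a promoter peak, with a median of -0.13 (quartiles -0.40 and 0.08); 6 (20.7%) were at or below -0.5, against 5.9% of all promoter genes, and 3 (10.3%) at or above 0.5, against 8.67%. The mitophagy receptors BNIP3L and BNIP3 had 271 and 311 shTIP60-C reads, against 232 and 247 shControl reads, with ratios of -0.60 (-0.85 to -0.34) and -0.49 (-0.73 to -0.24). PDK1, which blocks pyruvate entry into the citric acid cycle, had 407 shTIP60-C reads and 339 shControl reads, a ratio of -0.56 (-0.77 to -0.34). P4HA2, a collagen prolyl hydroxylase, had 411 shTIP60-C reads and 332 shControl reads, a ratio of -0.51 (-0.72 to -0.30). The intervals of these promoters lay below 0, each on over 500 reads. PFKFB4, a regulator of glycolytic flux, had 68 shTIP60-C reads and 75 shControl reads, a ratio of -0.96 (-1.46 to -0.47). The glycolytic enzymes LDHA and PGK1 had 309 and 257 shTIP60-C reads, against 230 and 184 shControl reads, with ratios of -0.40 (-0.64 to -0.14) and -0.34 (-0.62 to -0.06). The members at or above 0.5 were DDIT4 and VEGFA, which the ATF4 list also holds, and the carbonic anhydrase CA12, at 0.92 (0.18 to 1.85) on 59 shTIP60-C reads and 17 shControl reads. BHLHE40 stood at -0.00 and VHL, the ligase that degrades HIF1A, at -0.13.

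The letters ACGTGC, a hypoxia response element, were found in 6.89% of all windows and in 9 of the 24 hypoxia genes with a RefSeq promoter, whose median was -0.35, against -0.09 for the others. Over all promoter genes the medians with and without it were 0.05 and 0.07. The matches at 3 of the low promoters are shown in capitals, on the strand of the gene (GRCh38.p14); in BNIP3 a match on each strand overlaps.
BNIP3, chr10:131982011-131982096, minus strand: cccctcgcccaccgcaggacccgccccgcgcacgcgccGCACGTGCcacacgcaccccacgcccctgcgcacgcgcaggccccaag
LDHA, chr11:18394449-18394534, plus strand: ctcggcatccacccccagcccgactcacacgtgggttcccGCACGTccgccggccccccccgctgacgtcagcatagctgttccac
PGK1, chrX:78104024-78104109, plus strand: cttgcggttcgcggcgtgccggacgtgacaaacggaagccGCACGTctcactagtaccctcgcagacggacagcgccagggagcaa
DDIT4, ANKRD37 and BHLHE40 hold the same letters in their windows, and DDIT4 was high, so the letters did not fix the direction.

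Interferon signalling runs from IRF and STAT factors to their target genes, and many members of both groups were on the low side. IRF9 and STAT2, parts of the complex that carries type I interferon signals, had 248 and 239 shTIP60-C reads, against 202 and 188 shControl reads. Their ratios were -0.52 (-0.80 to -0.25) and -0.47 (-0.75 to -0.19). IRF7, the inducer of interferon genes, stood at -0.52 (-0.87 to -0.16), STAT3 at -0.39 (-0.79 to 0.03) and STAT6 at -0.25 (-0.42 to -0.08). IRF1, STAT5B and STAT5A were high, at 0.43 (0.07 to 0.83), 0.55 (0.35 to 0.75) and 0.85 (0.24 to 1.58). The group of 14 thus spread widely, with quartiles of -0.47 and 0.33. Of its members, 3 (21.4%) were at or below -0.5, against 5.9% of all promoter genes, and 2 (14.3%) at or above 0.5, against 8.67%. The lowest, IRF3 at -0.60 (-1.45 to 0.28), was called in shControl alone and had 27 shTIP60-C reads and 23 shControl reads. The median of the group relative to all promoter genes was -0.24, and became -0.13 after centring within read deciles and -0.12 within 10 Mb windows.

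Of 55 interferon-response genes listed, 42 had a promoter peak, with a median of -0.10; 5 (11.9%) were at or below -0.5, against 5.9% of all promoter genes, and 2 (4.76%) at or above 0.5, against 8.67%. MX1, an antiviral GTPase, had 176 shTIP60-C reads and 146 shControl reads, a ratio of -0.55 (-0.87 to -0.22). GBP1, a guanylate-binding protein, had 118 shTIP60-C reads and 97 shControl reads, a ratio of -0.54 (-0.94 to -0.13), and SAMD9 had 188 shTIP60-C reads and 152 shControl reads, a ratio of -0.51 (-0.83 to -0.19). ISG15, a ubiquitin-like modifier, had 220 shTIP60-C reads and 172 shControl reads, a ratio of -0.47 (-0.76 to -0.17). The most deeply covered low members were the RNA editor ADAR at -0.31 (-0.49 to -0.13) and IFI27 at -0.38 (-0.57 to -0.19). OAS2, an oligoadenylate synthetase, was high at 0.67 (0.18 to 1.22) on 125 shTIP60-C reads and 44 shControl reads. The deubiquitinase USP18, which dampens interferon signalling, stood at 0.27 (0.00 to 0.54), and PARP9, PARP12 and PARP14 between 0.15 and 0.18. Distal peaks nearest to these genes had a median of 0.18 (n = 39), so the low side was seen at promoters and not in the distal median.

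The interferon-stimulated response element, which IRF9 binds with its STAT partners, was found in 3.57% of all windows and in 23 of the 34 genes of the interferon list with a RefSeq promoter. Members with it had a median of -0.14 and members without it -0.16. The element at 4 low promoters is shown in capitals; in ISG15, IFIT3 and IFI27 it matched at more than 1 place.
MX1, chr21:41431814-41431903, plus strand: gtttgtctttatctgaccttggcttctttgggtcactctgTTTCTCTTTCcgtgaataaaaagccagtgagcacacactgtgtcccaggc
ISG15, chr1:1013350-1013439, plus strand: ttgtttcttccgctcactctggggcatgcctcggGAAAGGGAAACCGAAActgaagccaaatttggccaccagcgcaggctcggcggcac
IFIT3, chr10:89327835-89327924, plus strand: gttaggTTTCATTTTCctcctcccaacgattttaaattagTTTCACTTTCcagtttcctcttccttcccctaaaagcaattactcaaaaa
IFI27, chr14:94110601-94110690, plus strand: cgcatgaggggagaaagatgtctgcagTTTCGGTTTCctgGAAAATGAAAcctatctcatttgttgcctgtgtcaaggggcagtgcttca
IFIT3, which blocks viral translation with its paralogs, had 308 shTIP60-C reads and 216 shControl reads, a ratio of -0.31 (-0.56 to -0.05).

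Replication-dependent histone genes, which are transcribed in S phase from clustered loci, had a median of -0.15 over 49 promoters (quartiles -0.36 and -0.04), and 43 of the 49 lay below the median of all promoter genes. The shifts were small, with 4 genes (8.16%) at or below -0.5, near the 5.9% of all promoter genes, and 1 (2.04%) at or above 0.5, against 8.67%. The genes lie in a few clusters and share their surroundings: relative to all promoter genes the median was -0.21, and -0.0997 after centring within 10 Mb windows. HIST1H4J had 223 shTIP60-C reads and 191 shControl reads, a ratio of -0.60 (-0.88 to -0.31), and HIST1H4F had 297 shTIP60-C reads and 238 shControl reads, a ratio of -0.50 (-0.75 to -0.25). HIST1H3F had 343 shTIP60-C reads and 272 shControl reads, a ratio of -0.49 (-0.72 to -0.25). The linker histone genes HIST1H1C and HIST1H1A were not low, at 0.16 and 0.19. HIST1H3G stood at 0.54 (0.12 to 1.00), but its promoter peak in the shTIP60-C list gave -0.22. Histone genes are near-identical in sequence, so reads could have been split among them.

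**Figure D4:**
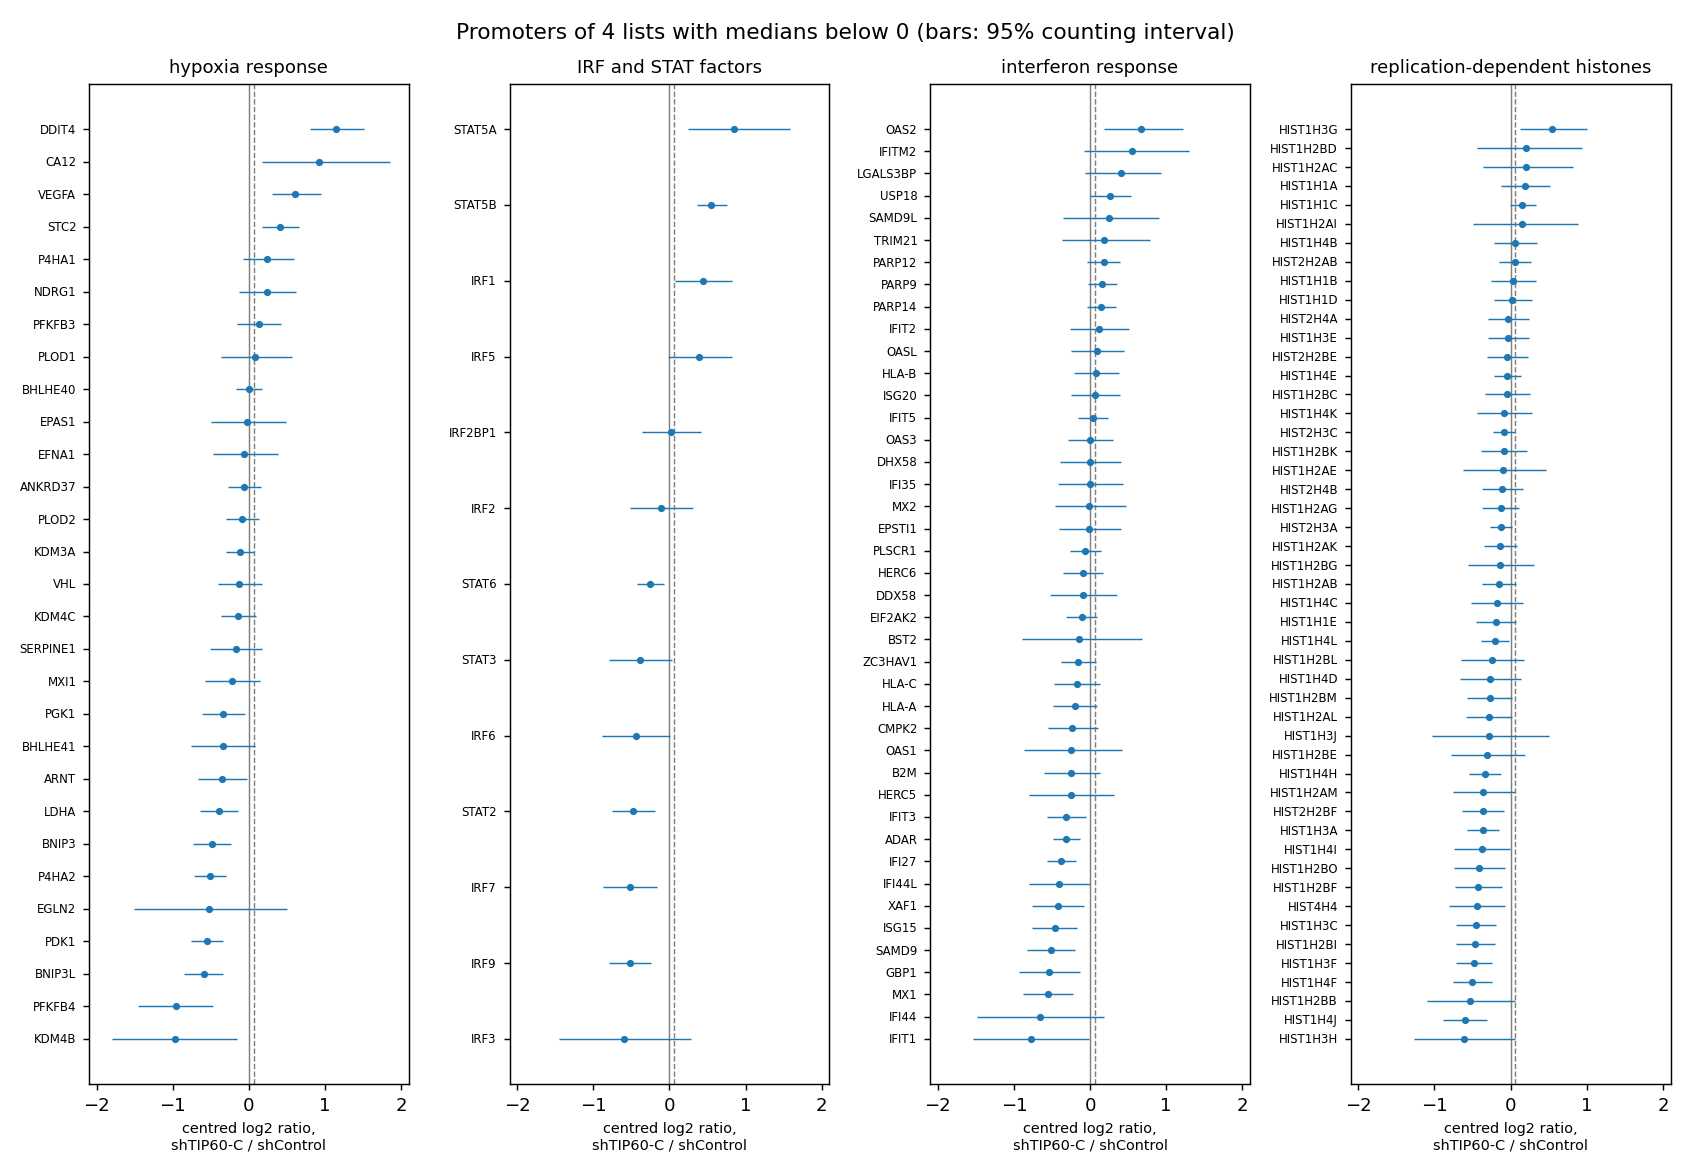
Centred log2 H4ac ratio of shTIP60-C over shControl at promoters of the hypoxia response, the IRF and STAT factors (1 member not drawn), the interferon response and the replication-dependent histones, with 95% counting intervals. Solid lines are 0 and dashed lines the median of all promoter genes; the medians of the 4 lists are -0.13, -0.18, -0.10 and -0.15.

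Genes of protein synthesis were slightly above the median peak as groups. The share of members past a ratio of 0.5 differed between the groups, which also differed in depth. Of 70 cytosolic ribosomal protein genes, with a median of 752 reads, 0 were past 0.5 in either direction. Among all peaks with 650 reads or more, 3.99% were at or above 0.5 and 0.65% at or below -0.5. The median ratio of the 70 genes was 0.20. RPL37 was highest, with 907 shTIP60-C reads and 364 shControl reads, a ratio of 0.50 (0.32 to 0.68), and RPL41 had 688 shTIP60-C reads and 441 shControl reads, a ratio of -0.18 (-0.35 to -0.00). The shift of this group was 0.14 relative to all promoter genes and is smaller than the counting interval of most single members. Mitochondrial ribosomal proteins, with a median of 288 reads, had a median ratio of 0.19 over 61 genes. Of the 61, 12 (19.7%) were at or above 0.5, against 8.67% of all promoter genes. Among these, MRPS2 had 586 shTIP60-C reads and 190 shControl reads, a ratio of 0.80 (0.57 to 1.05). MRPL19 had 344 shTIP60-C reads and 120 shControl reads, a ratio of 0.69 (0.40 to 1.01), while MRPS16 stood at -0.45 (-0.71 to -0.18).

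Aminoacyl-tRNA synthetases had a median of 0.20 over 28 genes, led by the cysteinyl enzyme CARS, with 278 shTIP60-C reads and 82 shControl reads and a ratio of 0.93 (0.58 to 1.32). Translation initiation factors had a median of 0.17 over 38 genes, 10.5% of them at or above 0.5, near the 8.67% of all promoter genes. EIF2B5, a subunit of the exchange factor of eIF2, had 513 shTIP60-C reads and 183 shControl reads, a ratio of 0.66 (0.42 to 0.92). EIF4EBP1, the repressor of cap-dependent initiation, had 785 shTIP60-C reads and 299 shControl reads, a ratio of 0.57 (0.38 to 0.77). EIF4E, the cap-binding protein it represses, went the other way, with 389 shTIP60-C reads and 292 shControl reads, a ratio of -0.41 (-0.63 to -0.18). Hosts of small nucleolar RNAs and growth-related long noncoding RNAs had a median of 0.20 over 21 genes, with the microRNA host MIR31HG highest at 1.46 and SNHG7 next at 0.82 (0.62 to 1.02) on 856 shTIP60-C reads and 275 shControl reads. MYC family members and core targets had a median of 0.23 over 26 genes. NCL, the nucleolar protein nucleolin, stood at 0.57 (0.41 to 0.73) and the MAX partner MXD3 at 0.79 (0.55 to 1.05), whereas the base excision repair enzyme APEX1 stood at -0.41 (-0.63 to -0.18).

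Among genes of the acetylation machinery, the NuA4 subunits were spread around 0, with a median of 0.01 over 17 genes. ACTL6A, an actin-like subunit, had 224 shTIP60-C reads and 98 shControl reads, a ratio of 0.36 (0.02 to 0.73). YEATS4, an acetyl-lysine reader, had 449 shTIP60-C reads and 306 shControl reads, a ratio of -0.27 (-0.48 to -0.05). The scaffold genes TRRAP and EPC1 stood at 0.16 and 0.19, and EP400 at -0.23 (-0.82 to 0.38). MORF4L2, a subunit outside the rule for named genes, was low at -1.02 (-1.55 to -0.50) on 59 shTIP60-C reads and 68 shControl reads. MRGBP, also outside it, stood at 0.54 (-0.13 to 1.32) on 63 shTIP60-C reads and 24 shControl reads. Each was the only member past 0.5 in its direction (5.88%), against 5.9% low and 8.67% high of all promoter genes.

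Other acetyltransferases had a median of -0.05 over 17 genes. The lowest was HAT1, which acetylates newly made H4, with 176 shTIP60-C reads and 156 shControl reads, a ratio of -0.65 (-0.96 to -0.33). KAT7, an H3 and H4 acetyltransferase, had 262 shTIP60-C reads and 200 shControl reads, a ratio of -0.43 (-0.70 to -0.16), and the H4K16 enzyme gene KAT8 stood at -0.25 (-0.56 to 0.07). CREBBP, a general coactivator, and KAT2A, of the SAGA and ATAC complexes, were high at 0.37 (0.13 to 0.62) and 0.40 (0.08 to 0.75), while KAT6A and KAT6B stood at -0.12 and -0.05. Of the deacetylase group, HDAC6, the cytoplasmic tubulin deacetylase, had 239 shTIP60-C reads and 77 shControl reads, a ratio of 0.80 (0.44 to 1.20). RCOR1, a scaffold of deacetylase complexes, had 725 shTIP60-C reads and 600 shControl reads, a ratio of -0.55 (-0.70 to -0.39). The pause-release kinase gene CDK9 stood at 0.45 (0.16 to 0.75).

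Cell-cycle promoters had medians near that of all promoter genes. Mitotic genes had a median of 0.01 over 52 genes, with 7 (13.5%) at or below -0.5, against 5.9% of all promoter genes, and 0 at or above 0.5, against 8.67%. Cyclin B1, CCNB1, had 200 shTIP60-C reads and 168 shControl reads, a ratio of -0.57 (-0.87 to -0.26), and the topoisomerase TOP2A had 139 shTIP60-C reads and 114 shControl reads, a ratio of -0.54 (-0.90 to -0.16). The survival factor BIRC5 stood at 0.28 (0.06 to 0.50). Replication genes had a median of 0.12 over 49 genes; GINS1, a helicase subunit, stood at -0.78 (-1.10 to -0.46) and the polymerase subunit POLD2 at 0.49 (0.24 to 0.76). Genes of double-strand break repair, a process in which TIP60 acts on ATM, had a median of -0.03 over 32 genes, with BARD1 at 0.80 (0.35 to 1.31), XRCC5 at -0.63 (-1.02 to -0.23) and CHEK2 at -0.56 (-0.87 to -0.24).

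The unfolded protein response, which shares upstream kinases with ATF4, had a median of 0.05 over 32 genes, with 5 (15.6%) at or below -0.5, against 5.9% of all promoter genes, and 0 at or above 0.5, against 8.67%. P4HB, a protein disulfide isomerase, had 508 shTIP60-C reads and 415 shControl reads, a ratio of -0.53 (-0.72 to -0.34). SEC24D, a coat protein of ER export, had 240 shTIP60-C reads and 214 shControl reads, a ratio of -0.65 (-0.93 to -0.38). XBP1, the factor spliced by ERN1, had 1411 shTIP60-C reads and 772 shControl reads, a ratio of 0.05 (-0.08 to 0.18). The chaperone gene HSPA5 stood at 0.37 (0.00 to 0.76). The median of these 32 genes was thus close to that of all promoter genes, with more members at the low end, and 1 of them, HERPUD1, is also in the ATF4 list.

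EGFR and ERK signalling, the pathway driven by mutant EGFR in this line, had a median of 0.15 over 37 genes, with 7 (18.9%) at or above 0.5, against 8.67% of all promoter genes, and 1 (2.7%) at or below -0.5, against 5.9%. EGFR itself had 577 shTIP60-C reads and 272 shControl reads, a ratio of 0.26 (0.06 to 0.48). DUSP5, a phosphatase that inactivates ERK, had 584 shTIP60-C reads and 204 shControl reads, a ratio of 0.69 (0.47 to 0.94), and the ERK1 gene MAPK3 had 255 shTIP60-C reads and 94 shControl reads, a ratio of 0.61 (0.27 to 0.98). NRAS was the lowest member, with 231 shTIP60-C reads and 188 shControl reads, a ratio of -0.52 (-0.81 to -0.24). Epithelial junction and keratin genes had a median of 0.04 over 37 genes. Of these, 5 (13.5%) were at or above 0.5, against 8.67% of all promoter genes, and 1 (2.7%) at or below -0.5, against 5.9%. KRT8, a keratin of simple epithelia, had 261 shTIP60-C reads and 70 shControl reads, a ratio of 1.06 (0.69 to 1.48), and the basement-membrane anchor gene LAD1 had 588 shTIP60-C reads and 208 shControl reads, a ratio of 0.68 (0.45 to 0.91). KRT18, the partner of KRT8, stood at 0.04 (-0.17 to 0.25). CLDN12 stood at -0.79 (-1.15 to -0.42).

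Across all promoter genes with at least 200 reads, the lowest, antisense genes and genes without an official symbol left out, included GPR146, SPDL1, RERE, ICMT, IP6K2, MED7, AIM2, CLDN12 and GINS1, with ratios of -0.94 to -0.78. AIM2, a sensor of cytosolic DNA, was the most deeply covered of them, with 519 shTIP60-C reads and 511 shControl reads at chr1:159045520-159047999 (hg19) and a ratio of -0.80 (-0.98 to -0.62). SPDL1, which recruits dynein to kinetochores, had 116 shTIP60-C reads and 121 shControl reads, a ratio of -0.88 (-1.26 to -0.50). RERE, a nuclear receptor coregulator, stood at -0.86 (-1.25 to -0.47), but its promoter peak in the shTIP60-C list gave 0.13.

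MIR31HG, the host gene of a microRNA, was higher than any gene the rule names, with 227 shTIP60-C reads and 46 shControl reads and a ratio of 1.46 (1.02 to 1.97). Antisense genes, microRNA hosts and genes without an official symbol were left out. Among the other promoter genes with at least 200 reads, the highest were GPT2, PPTC7, ANKRD13B, CCDC146, ARMC3, DDIT4, FAM27B, CYP1A1, ADGRE5 and KRT8, with ratios of 1.06 to 1.33. PPTC7, a mitochondrial phosphatase that limits BNIP3-dependent mitophagy, had 189 shTIP60-C reads and 42 shControl reads at chr12:111020117-111021034 (hg19), a ratio of 1.32 (0.86 to 1.87). CYP1A1, a monooxygenase induced through the aryl hydrocarbon receptor, had 162 shTIP60-C reads and 42 shControl reads, a ratio of 1.10 (0.63 to 1.65). ADGRE5, an adhesion receptor, had 178 shTIP60-C reads and 47 shControl reads, a ratio of 1.08 (0.63 to 1.60). ARMC3 and CCDC146, known from cilia and sperm flagella, stood at 1.15 and 1.20. Each of these peaks had no more than 48 shControl reads except those of DDIT4 and KRT8, so the size of these ratios rests on few control reads.

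At distal peaks the classes in the deposited annotation were close together. Intergenic peaks had a median of -0.02 (n = 11505), intronic peaks -0.06 (n = 11034) and exonic peaks -0.02 (n = 329). Peaks 1 to 10 kb, 10 to 100 kb and beyond 100 kb from a start site had medians of -0.01, -0.04 and -0.06. Peaks over CpG islands had 0.07 (n = 1207), with 6.30% at or below -0.5, against 17.3% of all distal peaks, and a median of 209 reads, against 115 for all distal peaks. Among peaks of the shTIP60-C library the CpG-island median was below that of all distal peaks by 0.05, so its place also rests on the peak list. The medians of SINE, LINE, LTR and DNA repeats were -0.05, -0.06, -0.01 and -0.08.

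SVA elements, composite retrotransposons of hominids that are still mobile in humans, were the exception. Their 339 distal peaks had a median of -0.45 (quartiles -0.82 and -0.13), with 153 (45.1%) at or below -0.5 and 6 at or above 0.5, against 17.3% and 10.2% of all distal peaks. They were weak, with a median of 59 reads, and 60.2% were called in shControl alone. Centred within read deciles, their median was -0.21. The 88 SVA peaks with at least 100 reads had a median of -0.29, against 0.06 for all distal peaks of that depth. A peak within ZMAT3 had 147 shTIP60-C reads and 143 shControl reads, a ratio of -0.78 (-1.12 to -0.44). A peak within OCLN was high, with 207 shTIP60-C reads and 77 shControl reads, a ratio of 0.60 (0.22 to 1.00). The 160 SVA peaks of the shTIP60-C library had a median of 0.02, below the 0.20 of all 30511 peaks of that list. Relative to all distal peaks of that list the SVA median was -0.23.

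Subfamilies were compared after the class values had been seen. Of 69 repeat subfamilies with at least 20 distal peaks, 7 had a median below -0.2 and 2 above 0.2. SVA_F, SVA_D, SVA_E and SVA_B stood at -0.52, -0.46, -0.42 and -0.35, on 52, 193, 34 and 38 peaks. Centred within read deciles their medians were -0.14, -0.22, -0.08 and -0.26. Over their peaks with at least 100 reads, 4 of them in SVA_E, they were -0.27, -0.34, -0.23 and -0.24. The LINE subfamilies L1MC4 and L1ME4a stood at -0.36 and -0.24, on 26 and 31 peaks. Their medians were -0.12 and -0.10 centred within read deciles, and -0.01 and -0.06 over peaks with at least 100 reads. LTR5_Hs, the long terminal repeat of the youngest HERV-K proviruses, had -0.38 over 41 peaks. Of these, 16 (39.0%) were at or below -0.5 and 0 at or above 0.5, against 17.3% and 10.2% of all distal peaks. The 41 peaks were weak, with a median of 78 reads, and 58.5% were called in shControl alone. Centred within read deciles, their median was -0.34. An LTR5_Hs peak at -19868 bases from the start site of PEMT had 61 shTIP60-C reads and 63 shControl reads, a ratio of -0.87 (-1.40 to -0.33). Among peaks of the shTIP60-C library the 15 LTR5_Hs peaks had a median of 0.16. Relative to all distal peaks of that list this was -0.08.

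LTR10A, a long terminal repeat of the ERV1 group that carries AP-1 sites and acts as an enhancer in epithelial cancers, lay on the high side. Its 40 peaks had a median of 0.33. Of these, 13 (32.5%) were at or above 0.5 and 0 at or below -0.5, against 10.2% and 17.3% of all distal peaks. The LTR10A peaks were strong, with a median of 713.5 reads, and 0% were called in shControl alone. Centred within read deciles the median was 0.26. The peak at -313150 bases from the start site of LRRC3B (chr3:26350089-26352205, hg19) had 462 shTIP60-C reads and 128 shControl reads, a ratio of 1.02 (0.75 to 1.33). A peak within LINC00578 had 357 shTIP60-C reads and 118 shControl reads, a ratio of 0.77 (0.47 to 1.09), and a peak upstream of MC3R had 416 shTIP60-C reads and 139 shControl reads, a ratio of 0.76 (0.48 to 1.05). LTR10A peaks near the zinc finger genes ZNF85 and ZNF292 were near the median peak, at -0.10 and 0.02. The related HERVIP10F-int and LTR10F stood at 0.27 (21 peaks) and 0.18 (28 peaks), but HERVIP10FH-int stood at -0.02 (30 peaks). In the shTIP60-C list the 53 LTR10A peaks had a median of 0.46. Relative to all distal peaks of that list this was 0.21. Reads from copies of a repeat can map to more than 1 place, and how the authors treated them is not given in the sources used here.

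**Figure D5:**
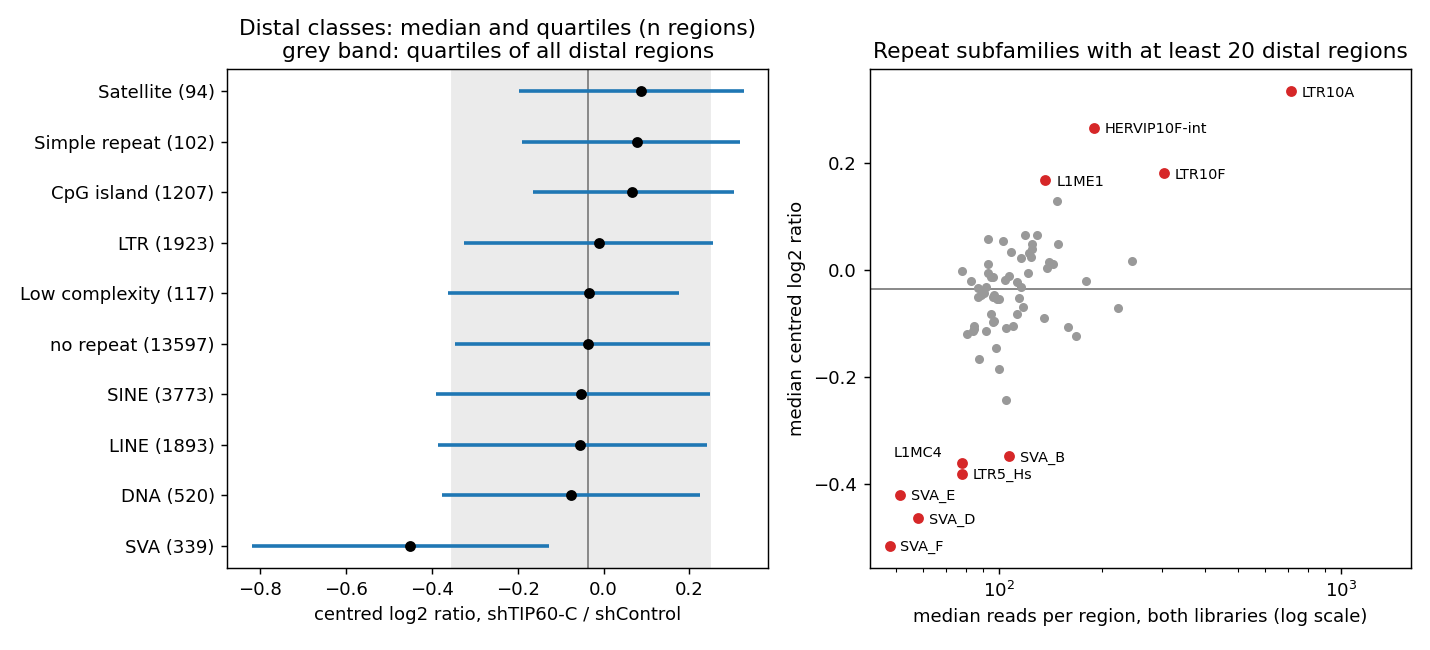
Left, median and quartiles of the centred log2 H4ac ratio of shTIP60-C over shControl for distal peaks by repeat class, with the number of peaks in brackets and the quartiles of all distal peaks in grey. Right, median ratio of each of 69 repeat subfamilies against its median reads per peak on a log scale; the SVA subfamilies are at the lower left and LTR10A, at 0.33, at the upper right.

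Single distal peaks with at least 200 reads past 2-fold were few: 3 of 7153 were lower and 39 higher. The lowest lay in the first intron of CREB5, a bZIP transcription factor, at chr7:28448599-28449994 (hg19), with 201 shTIP60-C reads and 241 shControl reads, a ratio of -1.08 (-1.36 to -0.81). A peak at -46923 bases from the start site of the flagellin receptor gene TLR5 had 121 shTIP60-C reads and 138 shControl reads, a ratio of -1.01 (-1.37 to -0.65), and peaks near MORN3 and WNT16 stood at -0.96 and -0.95. The highest lay between genes at chr11:80009073-80009962 (hg19), with 182 shTIP60-C reads and 30 shControl reads, a ratio of 1.74 (1.22 to 2.39). A peak within the trypsinogen gene PRSS3 had 169 shTIP60-C reads and 33 shControl reads, 2.83-fold higher in shTIP60-C cells relative to the median peak, and a peak upstream of the adaptor gene SHB had 177 shTIP60-C reads and 38 shControl reads, a ratio of 1.37 (0.89 to 1.95).

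The distal peaks nearest to a gene moved little with its promoter. Over 2996 genes with both kinds of peak at 100 reads or more, Pearson's r was 0.06 and Spearman's rho 0.07, across genes of the same 2 libraries. DDIT4 shows the difference: its promoter stood at 1.14, a peak at -12718 bases from the start site at -0.57 (-0.87 to -0.27) with 202 shTIP60-C reads and 170 shControl reads, and a peak at -9749 bases at 0.57 (-0.04 to 1.28). For GPT2, a peak at -19764 bases from the start site had 347 shTIP60-C reads and 142 shControl reads, a ratio of 0.46 (0.18 to 0.76). GDF15, a secreted stress cytokine with no promoter peak here, had a peak at -5494 bases from the start site with 151 shTIP60-C reads and 45 shControl reads, a ratio of 0.90 (0.44 to 1.44).

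Medians differed little along the chromosomes. Chromosome medians ran from -0.07 on chromosome 4 to 0.10 on chromosome 9. Windows of 10 Mb had medians of -0.21 to 0.16. Zinc finger genes of chromosome 19 had a median of -0.03 over 195 genes and those of other chromosomes 0.06 over 204. Within the chromosome 19 group, ZNF254 had 321 shTIP60-C reads and 301 shControl reads, a ratio of -0.73 (-0.96 to -0.49), ZNF43 stood at -0.63 (-0.91 to -0.36), and ZNF324 was high at 0.77 (0.35 to 1.24).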

How the data were processed

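H4ac ChIP-seq reads had been processed with Bowtie2 and MACS version 1.4.2 on hg19, per the submitters' processing notes. The table of regions carries a MAnorm comparison and a HOMER annotation, per the file headers, with versions not given in the sources used here. Read counts of both libraries per region are deposited whole numbers, not normalised. The authors' log2 ratio M is rescaled on shared peaks and was used as an alternative; the deposited −log10 p-value was not used. Column identity was checked: control counts were equal in both tables of the series at all 36034 control peaks. No per-sample column was left out.

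Samples were grouped by title, 1 library per group. Ratios were computed from the counts with Python 3.11.15, pandas 2.3.3 and scipy 1.17.1, with a pseudocount of 1 read, and were tested on simulated data with known ratios. With 1 library per group no p-value was computed, and called means past the fold. Intervals are Clopper-Pearson at 95% confidence. The 46 lists hold 1691 entries, of which 1502 were named in the annotation and 1316 measured; 6 were matched by alias. Motifs were searched on both strands of RefSeq promoters. Alternatives were the fold limit, pseudocount, read minimum, centring, the authors' M, 10 Mb windows, read deciles, the promoter distance, summed promoter peaks and the shTIP60-C peak list.

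Members, lists and the rule for named genes were chosen with earlier results of these data known. The rule names KAT5, the 10 lowest and 10 highest promoter genes of at least 200 reads, in each list described up to 4 members in the direction of its median and 2 in the other, and 5 distal regions per direction. In the ATF4, hypoxia, interferon, IRF and STAT, histone and acetylation lists, further members were named after their values were seen, as were EGFR, XBP1 and the peaks in repeat subfamilies. A few genes picked by this rule are left out here.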

Additional observations from a re-analysis of the deposited data

How the results depend on the processing

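The counts of 2-fold promoter genes, 83 lower and 71 higher, and of distal peaks, 982 lower and 199 higher, depended on limits, depth and the peak list. At 1.5-fold they were 431, 599, 3270 and 1682, in the order promoter lower, promoter higher, distal lower and distal higher, and at 3-fold 5, 0, 137 and 5. With at least 100 reads they were 16, 37, 71 and 109, and with at least 60 reads the lower ones were 33 and 251. Centring within read deciles gave 33 lower promoter genes and 353 lower distal peaks. The authors' M, whose median over the peaks is -0.12, gave 149, 33, 1558 and 99. A pseudocount of 5 gave 53, 44 and, for distal higher, 120, and scaling by summed reads gave 45 higher promoter genes. The shTIP60-C peak list gave 40, 137, 107 and 993; there the promoter median minus the distal one turned to -0.11, and CpG islands, introns and intergenic peaks relative to all distal peaks turned to -0.0504, 0.0043 and -0.00469. LTR peaks turned to -0.00658 in that list, -0.0073 at 100 reads and -0.00038 in read deciles. HDAC5 turned to -0.23, HIST1H3G to -0.22, MAX to -0.0902 and RERE to 0.13 in that list. The cause of these shifts was not tested.

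Relative to all promoter genes, the ATF4 median stayed at 0.34 to 0.40 under all settings run, hypoxia at -0.23 to -0.16, interferon at -0.17 to -0.10, IRF and STAT at -0.29 to -0.12, histones at -0.29 to -0.10 and cytosolic ribosomal proteins at 0.07 to 0.16. Relative to all distal peaks, SVA stayed at -0.44 to -0.20, LTR10A at 0.21 to 0.42 and LTR5_Hs at -0.38 to -0.08. No paired analysis was possible because each group is 1 library, so a replicate block could not be fitted. Depth limits single peaks of 67 reads or fewer, where the spread was 1.06 to 1.17 times counting error.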

Other observations

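The shTIP60-C library had 3389 peaks that were not called in shControl, with a median ratio of 0.93 and a median of 72 reads. Of these, 505 were promoter peaks (median 0.89) and 2884 distal (median 0.94). They were chosen by the same reads, so their height is no finding. By class, SVA made up 0.971% of the distal ones, against 1.44% of distal control peaks, CpG islands 2.77% against 5.12%, SINEs 17.1% against 16.0% and LTRs 8.60% against 8.15%.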
